A study of Homo sapiens with 12 samples.

Results

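Solute carriers are the membrane proteins that move small molecules across the plasma membrane and the membranes of organelles. The genes described here are the protein-coding genes whose symbol begins with SLC and a digit and whose mean level reached 5 TPM in at least 1 condition. TPM is the share of all transcripts that a gene holds, corrected for transcript length and scaled to one total in every library. Of 373 such symbols in the table, 174 met the rule, beside 10160 protein-coding genes of any name that reached the same level. The melanosomal SLC45A2 and SLC24A5 and the cystine exchanger subunits SLC7A11 and SLC3A2 were left out by name, and 195 genes were under the minimum, 19 of them listed at 0 in all libraries. The genes were thus chosen by their measured level, which is given as a description. The members nearest to the limit were SLC12A7, SLC25A42 and SLC35G2, with highest condition means of 5.21, 5.28 and 5.31 TPM, and the nearest genes outside it were SLC8B1, SLC1A1 and SLC25A35 with 4.96, 4.67 and 4.60 TPM. In all 4 conditions 148 genes reached 5 TPM, and counts and tests are given for these. The other 26 passed through some conditions only and are given by their values, without a test of their own. Where a count covers all 174 genes it includes these, and it is given only to show how far counts depend on the settings.

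Solute carriers work as facilitators, exchangers or ion-coupled cotransporters, and each family has a characteristic cargo. The SLC1, SLC7 and SLC38 families carry amino acids, SLC2 glucose and related sugars, SLC16 monocarboxylates, SLC25 the metabolites that cross the inner mitochondrial membrane, SLC35 nucleotide sugars bound for the Golgi and the endoplasmic reticulum, and SLC30 and SLC39 zinc out of and into the cytosol. MITF is the transcription factor that maintains the melanocytic state and binds E-box sequences, and it is known for control of pigment and lysosomal genes in melanoma. IFNγ acts through a receptor coupled to JAK kinases, and genes that respond to it often carry GAS elements. The genes were placed in 13 groups by transported substrate, from knowledge of the families. SLC2A4RG, SLC4A1AP and SLC7A6OS match the symbol rule but are not transporters, and they stand with the 14 genes at 5 TPM in all conditions whose substrate is not settled or that belong to no other group.

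The 624Mel cells used are an established line from human melanoma. The study asked how loss of MITF changes what IFNγ does in melanoma cells. The cells received a control siRNA (siCTRL) or 1 siRNA against MITF (siMITF), and 24 h later either no IFNγ or 5 ng/mL IFNγ for a further 24 h, so that the 4 conditions were siCTRL, siCTRL + IFNγ, siMITF and siMITF + IFNγ with 3 libraries each. RNA was collected 48 h after transfection in every condition, and all cells therefore carried an siRNA. The design has 1 cell line and 1 targeting siRNA, and because RNA came from whole cultures, fewer cells of a kind and less RNA per cell cannot be told apart. The study's methods speak of independent biological replicates, but the labels do not say that the 3 libraries of a condition came from separate cultures, and p-values then measure the spread between these libraries.

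MITF itself was listed at 187, 229 and 217 TPM in siCTRL and at 36.0, 49.7 and 41.7 TPM in siMITF libraries, a log2 fold change of -2.29 (SE 0.19, limma adjusted p = 1.16e-06). The libraries held the melanocytic markers PMEL, MLANA, TYR, DCT and SOX10 at condition means of 17.2 TPM or more. Those of keratinocytes were at or near 0, and those of fibroblasts, endothelium and leukocytes were under 1 TPM in every condition mean but for LUM (library range 2.07 to 7.42 TPM) and CD68 (22.0 to 94.3 TPM). The mean of CD68, a lysosomal protein that is also made outside leukocytes, was 71.5 TPM in siCTRL and 27.3 TPM in siMITF cells, while PTPRC, the defining leukocyte marker, was under 1 TPM. The share of TPM taken by mitochondrially encoded genes ran from 7.42% to 12.7% in the libraries numbered 2 and from 12.8% to 16.9% in the others. The solute carriers together took 0.656% to 0.835% of TPM, and 0.800% or more in each library numbered 2. TPM hold no read counts, so that the depth is unknown and no interval for counting error is given.

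In siCTRL cells the median solute carrier stood at 19.6 TPM, 15 genes were over 100 TPM, and the 10 highest made up 41.9% of the solute carrier TPM. The adenine nucleotide translocases and the phosphate carrier of the inner mitochondrial membrane led the order. SLC25A6 was at 710.3 ± 4.87 TPM (SD, n = 3), SLC25A3 at 551.0 ± 29.0 TPM and SLC25A5 at 547.9 ± 9.99 TPM, the last 2 closer to each other than their spread. SLC25A5 and SLC25A6 are close paralogs with processed pseudogenes, and the division of reads between them is uncertain. Next came SLC2A1 (GLUT1, the basal glucose transporter) at 313 ± 20.7 TPM and SLC7A5 (LAT1, a leucine and large neutral amino acid exchanger) at 256 ± 12.6 TPM. SLC16A6, a monocarboxylate family member described as a taurine and ketone body carrier, followed at 209 ± 16.04 TPM, ahead of the glutamine transporter SLC1A5 at 171 ± 4.27 TPM and the alanine, serine and cysteine transporter SLC1A4 at 156 ± 10.2 TPM. The copper importer SLC31A1 and the zinc importer SLC39A1 were level at 138 ± 11.9 and 138 ± 9.12 TPM. The lactate exporter SLC16A3 and the glutamine transporter SLC38A1 were under 5 TPM in every condition and were not included.

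MITF knockdown without IFNγ moved solute carriers in both directions and divided several families. Of the 148 genes at 5 TPM in all conditions, 64 were called (limma, adjusted p under 0.05), which is 43.2%, against 32.7% of the 9789 gene IDs of any kind at that level. Among them 35 were higher, with a background of 18.7%, and 29 lower, with a background of 14%. A change of 2-fold or more was called for 15, 8 higher and 7 lower, against 4.13% of genes at that level. The median log2 fold change of the solute carriers was 0.056 and that of the genes at that level 0.046. The libraries of the 2 conditions did not overlap for 103 of the 148 genes (69.6%, against 54.5% of genes at that level), the 64 called ones included. Fold changes here are on the log2(TPM + 1) scale, which understates the change of low genes. With the replicate number as a block, 92 of 148 were called against a background of 47.4%, and none of the 64 was lost. The 28 added by the block included 4 zinc carriers, SLC30A6, SLC39A1 and SLC39A4 (higher) and SLC39A9 (lower), and 3 vitamin and choline carriers, SLC44A1 and SLC5A6 (higher) and SLC23A2 (lower).

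**Figure D1:**
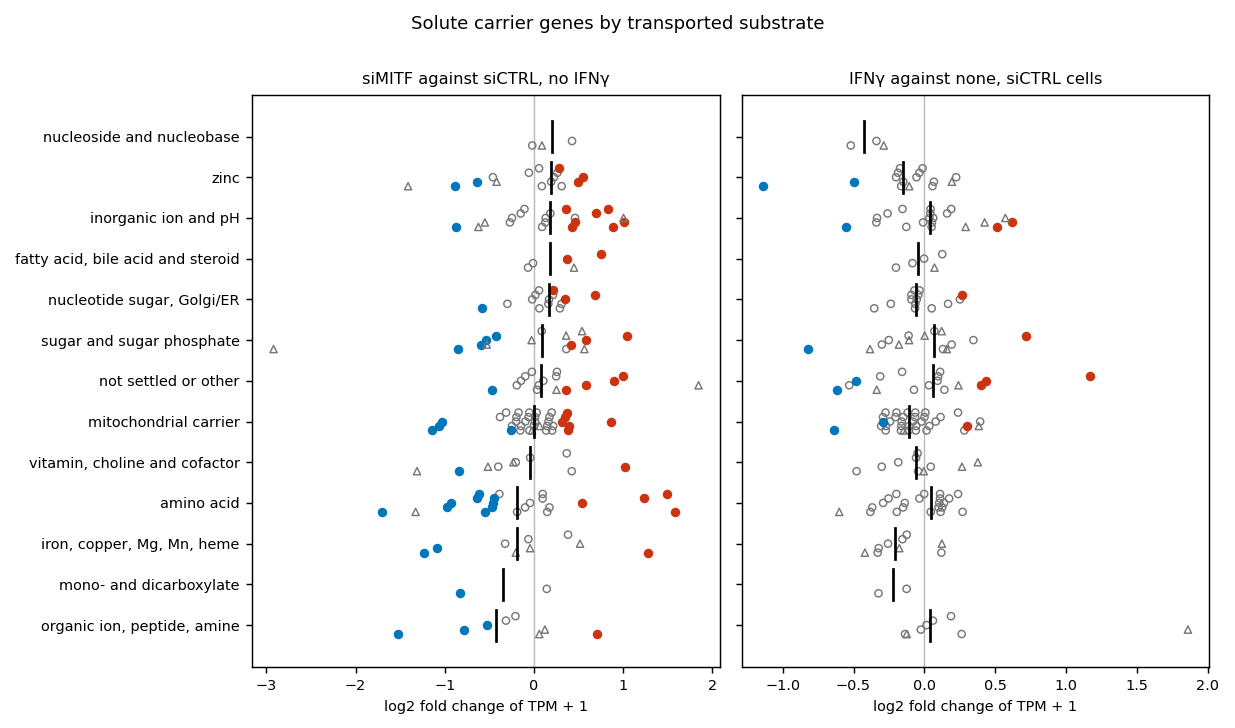
Log2 fold change of TPM + 1 for the 174 solute carriers by transported substrate, for siMITF against siCTRL without IFNγ (left) and for IFNγ in siCTRL cells (right). Filled circles are genes at 5 TPM in all conditions with an adjusted p under 0.05 (red higher, blue lower), open circles those without, open triangles the 26 genes at 5 TPM in some conditions only, and black bars the group medians over the circles. In the left panel the 33 mitochondrial carriers have a median of -0.0020, and 9 of the 21 amino acid carriers are blue, against 14% of genes of any kind at that level.

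Amino acid carriers held the largest number of falls. Of 21, 9 fell and 4 rose with siMITF (61.9% called), with a median log2 fold change of -0.19. Among genes of any kind at 5 TPM in all conditions, 32.7% were called, 14% as falls and 18.7% as rises. Within the SLC7A family 4 of 6 fell and 1 rose. SLC7A2 (ENSG00000003989), a cationic amino acid transporter for arginine, lysine and ornithine, was at 24.0, 30.1 and 28.6 TPM in siCTRL and 6.99, 9.08 and 7.33 TPM in siMITF libraries (log2 fold change -1.70, SE 0.20, adjusted p = 3.03e-05). SLC7A6, which exchanges cationic for neutral amino acids, went from 13.7, 23.6 and 19.7 to 7.91, 11.01 and 9.12 TPM (log2 fold change -0.93, SE 0.22, adjusted p = 0.00631). In each case every siMITF library lay below every siCTRL library. The other SLC7A falls were smaller, at -0.55 for the cationic transporter SLC7A1 (SE 0.19, adjusted p = 0.0364) and -0.46 for SLC7A5 (SE 0.14, adjusted p = 0.024). For SLC7A5 the call was lost without siCTRL replicate 2 or 3 or siMITF replicate 1 or 3, with adjusted p of 0.0700, 0.0677, 0.0913 and 0.0546.

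SLC7A8 (LAT2), which exchanges neutral amino acids as SLC7A5 does, went the other way. It was at 62.8, 68.9 and 61.8 TPM in siCTRL and 192, 218 and 175 TPM in siMITF libraries (log2 fold change 1.58, SE 0.12, adjusted p = 5.38e-07), and mean levels of the pair, 255.8 against 64.5 TPM in siCTRL, were 186.2 against 195.2 TPM in siMITF cells. The SLC1A family was divided in the same manner. SLC1A5 (ASCT2), which brings in glutamine, was at 168, 176 and 169 TPM in siCTRL and 399.5, 419 and 392 TPM in siMITF libraries (log2 fold change 1.23, SE 0.065, adjusted p = 2.59e-08), with the smallest adjusted p among the 148. The glutamate and aspartate transporter SLC1A3 rose from 4.86, 7.88 and 6.74 to 20.4, 19.8 and 19.0 TPM (log2 fold change 1.49, SE 0.15, adjusted p = 6.76e-06). SLC1A4 fell from 145, 164 and 159 to 92.4, 109 and 97.4 TPM (log2 fold change -0.64, SE 0.15, adjusted p = 0.00504).

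Of the further amino acid carriers, the sodium-coupled glutamine and alanine transporter SLC38A2 rose from 76.2, 97.1 and 84.0 to 118, 139 and 118 TPM (log2 fold change 0.54, SE 0.11, adjusted p = 0.00287). SLC6A17, a vesicular neutral amino acid transporter, fell from 25.7, 27.8 and 27.8 to 12.3, 14.3 and 13.3 TPM (log2 fold change -0.97, SE 0.16, adjusted p = 4.69e-04). The remaining falls were -0.62 for SLC38A6, -0.47 for the lysosomal cationic amino acid exporter SLC66A1 and -0.44 for the lysosomal proton-coupled transporter SLC36A1.

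Sugar carriers were also split, with 3 higher and 4 lower of 9 (77.8% called, background 32.7%) and a median of 0.09. SLC2A1 was listed at 292, 334 and 314 TPM in siCTRL and 357, 449 and 407 TPM in siMITF libraries, and the difference did not pass the test (log2 fold change 0.36, SE 0.19, adjusted p = 0.158), while it did with the replicate block (adjusted p = 0.00843). The high-affinity glucose transporter SLC2A3 (GLUT3) fell from 34.0, 43.4 and 34.7 to 25.03, 27.4 and 23.4 TPM (log2 fold change -0.54, SE 0.12, adjusted p = 0.00463). SLC2A8, a glucose transporter of intracellular membranes, rose from 4.25, 6.03 and 4.88 to 12.5, 11.5 and 10.3 TPM (log2 fold change 1.04, SE 0.14, adjusted p = 6.84e-05). In these 3 genes the libraries of the 2 conditions did not overlap. SLC5A4, a family member of the sodium-glucose cotransporters, went from 14.8, 14.7 and 14.9 to 7.63, 7.80 and 7.76 TPM (log2 fold change -0.85, SE 0.16, adjusted p = 0.00103). Among the sugar phosphate carriers, SLC37A4, which brings glucose 6-phosphate into the endoplasmic reticulum, rose by 0.58 and SLC37A3 by 0.42, SLC37A1 had -0.59, and the inositol transporter SLC2A13 -0.42. Of the 2 monocarboxylate carriers, SLC16A1 (MCT1, lactate and pyruvate) was listed at 57.5, 76.0 and 60.3 and 71.7, 72.8 and 68.3 TPM without a call (log2 fold change 0.14, SE 0.11, adjusted p = 0.352), and SLC16A7 (MCT2) fell from 9.70, 12.8 and 11.001 to 5.47, 6.24 and 5.76 TPM (log2 fold change -0.83, SE 0.14, adjusted p = 7.03e-04).

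Metal carriers gave some of the clearest shifts. SLC11A2 (DMT1), the proton-coupled iron importer of endosomes and the cell surface, was at 67.9, 77.5 and 72.1 TPM in siCTRL and 28.3, 32.1 and 30.5 TPM in siMITF libraries (log2 fold change -1.23, SE 0.12, adjusted p = 4.44e-06). SLC31A1 (CTR1), the copper importer, was at 125, 148 and 141 and 60.3, 70.3 and 62.7 TPM (log2 fold change -1.09, SE 0.15, adjusted p = 1.11e-04). SLC39A8 (ZIP8), an importer of manganese, zinc and iron, rose from 17.6, 20.4 and 18.7 to 47.4, 50.4 and 44.5 TPM (log2 fold change 1.28, SE 0.10, adjusted p = 9.41e-07). Those 3 were the called ones among 6 carriers of iron, copper, magnesium, manganese and heme, 50% beside a background of 32.7%. SLC39A14 (ZIP14), the relative of SLC39A8, was listed at 51.9, 64.1 and 54.6 and 44.2, 48.1 and 43.1 TPM and was not called (log2 fold change -0.32, SE 0.14, adjusted p = 0.102), although it was with the replicate block (adjusted p = 0.00914).

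Of the 13 zinc carriers, 3 rose and 2 fell (38.5% called, near the background of 32.7%), with a median of 0.19. The plasma membrane exporter SLC30A1 rose from 9.41, 12.1 and 11.2 to 15.0, 16.4 and 15.6 TPM (log2 fold change 0.49, SE 0.13, adjusted p = 0.00911). The Golgi loader SLC30A7 fell from 17.7, 19.3 and 17.6 to 11.96, 11.4 and 10.6 TPM (log2 fold change -0.64, SE 0.093, adjusted p = 1.68e-04). The importers SLC39A13 and SLC39A3 rose by 0.55 and 0.29. SLC39A7 (ZIP7), which releases zinc from the endoplasmic reticulum, was at 22.6, 22.5 and 15.2 TPM in siCTRL and 8.68, 10.4 and 11.8 TPM in siMITF libraries (log2 fold change -0.89, SE 0.22, adjusted p = 0.00652). It lies in the major histocompatibility complex, where the genome has alternate haplotypes, and reads given to copies under other gene IDs would not be in these values. SLC39A1, the highest zinc carrier, was listed at 129.7, 148 and 136 and 154, 164 and 166 TPM, with no call (log2 fold change 0.23, SE 0.11, adjusted p = 0.122) but for the replicate block (adjusted p = 0.0118).

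Among 33 mitochondrial carriers 6 rose and 4 fell (30.3% called, near the background of 32.7%). The 3 adenine nucleotide translocases, which exchange ADP for ATP, did not move together. SLC25A4 (ANT1) was at 84.1, 86.3 and 82.9 TPM in siCTRL and 36.2, 39.9 and 37.0 TPM in siMITF libraries (log2 fold change -1.14, SE 0.094, adjusted p = 1.29e-06). SLC25A5 (ANT2) was at 540.2, 559 and 544 and 440.4, 471 and 464 TPM (log2 fold change -0.26, SE 0.072, adjusted p = 0.0147), a call lost without siMITF replicate 1 (adjusted p = 0.0657). SLC25A6 (ANT3) was at 716, 709 and 706 and 683, 718 and 751 TPM, with overlapping libraries (log2 fold change 0.013, SE 0.092, adjusted p = 0.934). The aspartate and glutamate exchanger SLC25A13 (citrin) fell from 88.6, 96.9 and 93.7 to 44.9, 47.8 and 42.4 TPM (log2 fold change -1.03, SE 0.10, adjusted p = 8.49e-06), and SLC25A16 from 17.8, 17.9 and 19.1 to 8.10, 8.82 and 7.69 TPM (log2 fold change -1.07, SE 0.088, adjusted p = 1.39e-06). The carnitine and acylcarnitine carrier SLC25A20 showed the largest rise of the group, from 8.78, 9.76 and 7.78 to 17.5, 16.7 and 16.2 TPM (log2 fold change 0.87, SE 0.11, adjusted p = 7.86e-05). The citrate carrier SLC25A1, the dicarboxylate carrier SLC25A10, the glycine carrier SLC25A38, SLC25A40 and the S-adenosylmethionine carrier SLC25A26 rose by 0.31 to 0.39.

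Of 17 carriers of inorganic ions and acid equivalents 7 rose and 1 fell (47.1% called, background 32.7%), with a median of 0.18. The sulfate transporter SLC26A2 was at 23.8, 29.0 and 26.5 TPM in siCTRL and 53.4, 58.9 and 50.5 TPM in siMITF libraries (log2 fold change 1.01, SE 0.12, adjusted p = 3.13e-05). The sodium-proton exchanger SLC9A3 went from 4.42, 5.75 and 5.19 to 11.9, 9.88 and 9.17 TPM (log2 fold change 0.89, SE 0.14, adjusted p = 3.14e-04) and the phosphate importer SLC20A2 from 20.6, 24.4 and 24.5 to 37.8, 47.0 and 40.8 TPM (log2 fold change 0.83, SE 0.19, adjusted p = 0.00487). In each, every siMITF library lay above every siCTRL library. The highest of the group, the chloride-bicarbonate exchanger SLC4A2, was listed at 107, 123 and 117 and 118, 140.0 and 136 TPM without a call (log2 fold change 0.18, SE 0.11, adjusted p = 0.215), and with one under the replicate block (adjusted p = 0.0238).

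Of 6 carriers of organic ions, peptides and amines, 3 fell and 1 rose (66.7% called, background 32.7%), with a median of -0.42. SLC16A6 (ENSG00000108932) was at 194, 226 and 207 TPM in siCTRL and 67.8, 74.9 and 72.5 TPM in siMITF libraries (log2 fold change -1.53, SE 0.086, adjusted p = 5.10e-08). The vesicular polyamine transporter SLC18B1 fell from 28.8, 33.9 and 31.6 to 17.5, 18.6 and 17.5 TPM (log2 fold change -0.78, SE 0.09, adjusted p = 2.69e-05). The lysosomal sialic acid exporter SLC17A5 rose from 6.55, 7.43 and 6.97 to 12.6, 12.3 and 11.3 TPM (log2 fold change 0.71, SE 0.096, adjusted p = 9.28e-05). The endolysosomal peptide and histidine transporter SLC15A4 was listed at 22.3, 23.8 and 22.6 and 19.8, 21.6 and 17.9 TPM (log2 fold change -0.21, SE 0.091, adjusted p = 0.0992) and was called with the replicate block (adjusted p = 0.0449).

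The remaining groups are given together, beside the same background of 32.7%. The shares called were 28.6% both for nucleotide sugar carriers and for vitamin and choline carriers. They were 50% for fatty acid, bile acid and steroid carriers and 35.7% for the genes placed in no other group. Of 14 nucleotide sugar carriers 3 rose and 1 fell, with SLC35A5 at 28.1, 31.6 and 27.9 TPM in siCTRL and 47.7, 51.3 and 43.2 TPM in siMITF libraries (log2 fold change 0.68, SE 0.096, adjusted p = 1.40e-04), and SLC35B2, which carries the sulfate donor PAPS into the Golgi and was the highest of them, at 0.16 without a call. Of 7 vitamin and choline carriers, the choline transporter-like SLC44A2 rose from 6.71, 7.44 and 8.61 to 15.2, 16.8 and 17.0 TPM (log2 fold change 1.02, SE 0.16, adjusted p = 3.84e-04) and SLC49A4 fell from 22.1, 23.0 and 20.9 to 12.1, 11.9 and 11.4 TPM (log2 fold change -0.84, SE 0.095, adjusted p = 2.08e-05). The biotin and pantothenate transporter SLC5A6, the highest of that group, was listed at 91.99, 113 and 111 and 129, 148 and 148 TPM, called with the replicate block only (adjusted p = 0.109 without it and 0.00217 with it). Among the 4 fatty acid, bile acid and steroid carriers SLC10A3 and SLC27A1 rose, by 0.76 and 0.37, and the highest, SLC27A4, was at -0.066 without a call. Neither of the 2 nucleoside carriers was called, but SLC29A1 was with the replicate block (log2 fold change 0.43, adjusted p = 0.0131), and SLC43A3, a purine nucleobase transporter, was listed at 90.2, 103 and 101 and 93.9, 99.7 and 96.1 TPM. Of the 14 genes whose substrate is not settled or that belong to no other group, 4 rose and 1 fell. Among the rises was SLC2A4RG, which is not a transporter (log2 fold change 0.36, limma adjusted p = 0.00602). SLC16A4 rose from 11.5, 12.2 and 10.5 to 23.6, 24.8 and 23.0 TPM (log2 fold change 1.00, SE 0.11, adjusted p = 1.50e-05), and SLC35G1 from 12.7, 14.9 and 14.0 to 26.7, 26.3 and 26.9 TPM (log2 fold change 0.89, SE 0.11, adjusted p = 5.37e-05).

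**Figure D2:**
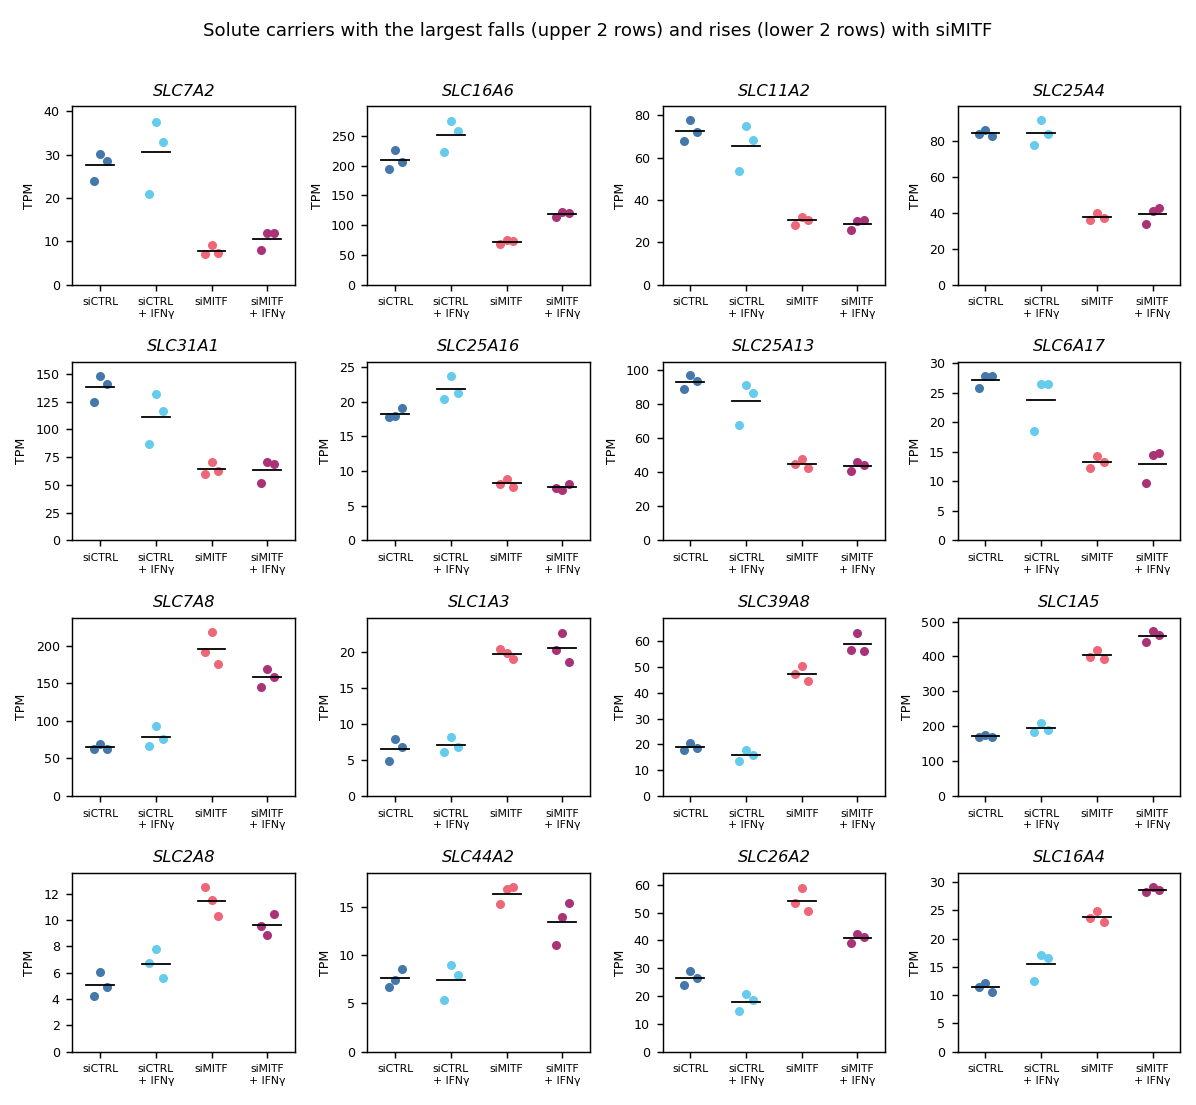
TPM in each library (points, in the order of replicates 1 to 3) and the condition mean (bars) for the 8 largest falls (upper rows) and the 8 largest rises (lower rows) with siMITF among solute carriers at 5 TPM in all conditions. In all 16 panels the 3 siMITF points lie on one side of the 3 siCTRL points, as for SLC1A5 at 168 to 176 TPM against 392 to 419 TPM.

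Of the 64 calls, 47 were kept in every alternative fit and with each library left out in turn, and 17 were lost in at least 1. Those 17 were SLC7A1, SLC7A5, SLC36A1, SLC12A9, SLC24A1, SLC22A23, SLC25A5, SLC25A26, SLC25A38, SLC25A40, SLC27A1, SLC2A13, SLC37A3, SLC35A1, SLC35B4, SLC35D2 and SLC39A3. The largest number, 13, was lost without siMITF replicate 1, with adjusted p of 0.0552 to 0.153. A further setting, leaving out siCTRL replicate 3, lost 12 (0.0505 to 0.151). The losses were 10 for siMITF replicate 2, 9 each without siCTRL replicate 1 and without the third siMITF library, and 8 in the absence of siCTRL replicate 2.

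Sequence upstream of 3 solute carriers is shown because MITF is known to bind E-boxes and each holds 1 or 2 of the letters searched, in genes that moved in opposite directions. The windows are the 200 bases before the RefSeq start on GRCh38.p14, 5′ to 3′ on the strand of the gene, with CACGTG and CACATG in capitals. SLC25A13 (minus strand, chr7:96322099-96322298) has CACGTG with its first base at -154 and CACATG at -32 from the start, SLC39A11 (minus strand, chr17:73092689-73092888) has CACGTG at -27, and SLC26A2 (plus strand, chr5:149960558-149960757) at -24.
SLC25A13: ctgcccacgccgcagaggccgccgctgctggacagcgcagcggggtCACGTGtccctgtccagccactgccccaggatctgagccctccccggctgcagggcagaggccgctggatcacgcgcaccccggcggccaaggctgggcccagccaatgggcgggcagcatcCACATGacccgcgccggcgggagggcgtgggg
SLC39A11: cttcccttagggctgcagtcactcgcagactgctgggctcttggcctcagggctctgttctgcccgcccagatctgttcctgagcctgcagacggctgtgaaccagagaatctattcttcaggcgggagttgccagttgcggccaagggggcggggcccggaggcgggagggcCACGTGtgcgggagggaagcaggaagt
SLC26A2: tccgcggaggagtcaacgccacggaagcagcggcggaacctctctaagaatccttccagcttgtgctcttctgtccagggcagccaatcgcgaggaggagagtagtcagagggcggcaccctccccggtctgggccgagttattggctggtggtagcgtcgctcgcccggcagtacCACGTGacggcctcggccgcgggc
SLC25A13 and the zinc importer SLC39A11 were lower in siMITF than in siCTRL libraries, and SLC26A2 was higher. Over whole windows of 300 bases (250 before and 50 from the start, either strand), which were found for 142 of the 174 genes, CACGTG or CACATG stood in 17.9% of all 27305 windows and 17.6% of those of solute carriers. The letters were in 3 of 24 windows of genes that fell with siMITF (12.5%), 4 of 33 of genes that rose (12.1%) and 14 of 67 of genes without a call (20.9%). Taken singly, CACGTG stood in 7.43% of all windows and 12% of those of solute carriers, and CACATG in 11.2% and 7.04%. For CACGTG the shares were 12.5% of genes that fell, 6.06% of those that rose and 14.9% of those without a call. The GAS letters TTCNNNGAA or the ISRE-like GAAA repeated after 2 bases of any kind stood in 11.1% of all windows, 6.34% of solute carrier windows and 1 of 6 windows of genes that rose with IFNγ, that of SLC35D2. A match is a run of letters and not a bound site.

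The knockdown was also compared between the 2 conditions with IFNγ. The fold changes of this comparison use none of the libraries above. Its tests do, because all 12 libraries share one estimate of the spread per gene, so the calls are not independent. With IFNγ present 55 of the 148 genes were called, against a background of 30.3%, 28 higher (background 15.6%) and 27 lower (background 14.8%). Of the 64 genes called without IFNγ, 46 were called here too, which is 71.9% of the first list and 83.6% of the second, against 71.6% and 77.2% over the genes at that level. The sign was the same for 62 of the 64 (96.9%, against 98.3% of called genes at that level), and the exceptions were SLC39A7 and SLC5A4. The correlation of the 2 sets of log2 fold changes was 0.916 across the 148 genes and 0.907 across the 9789, a description over genes that share their libraries within each comparison. With IFNγ the log2 fold change was -1.42 for SLC7A2, -1.15 for SLC11A2, -1.09 for SLC25A4, 1.42 for SLC1A3 and 1.24 for SLC1A5. It was 1.00 for SLC7A8 and -1.08 for SLC16A6, which had 1.58 and -1.53 without IFNγ. SLC39A8 was at 13.5, 17.7 and 16.01 TPM in siCTRL + IFNγ and 56.6, 63.3 and 56.3 TPM in siMITF + IFNγ libraries (log2 fold change 1.84, SE 0.10, adjusted p = 4.45e-08).

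**Figure D3:**
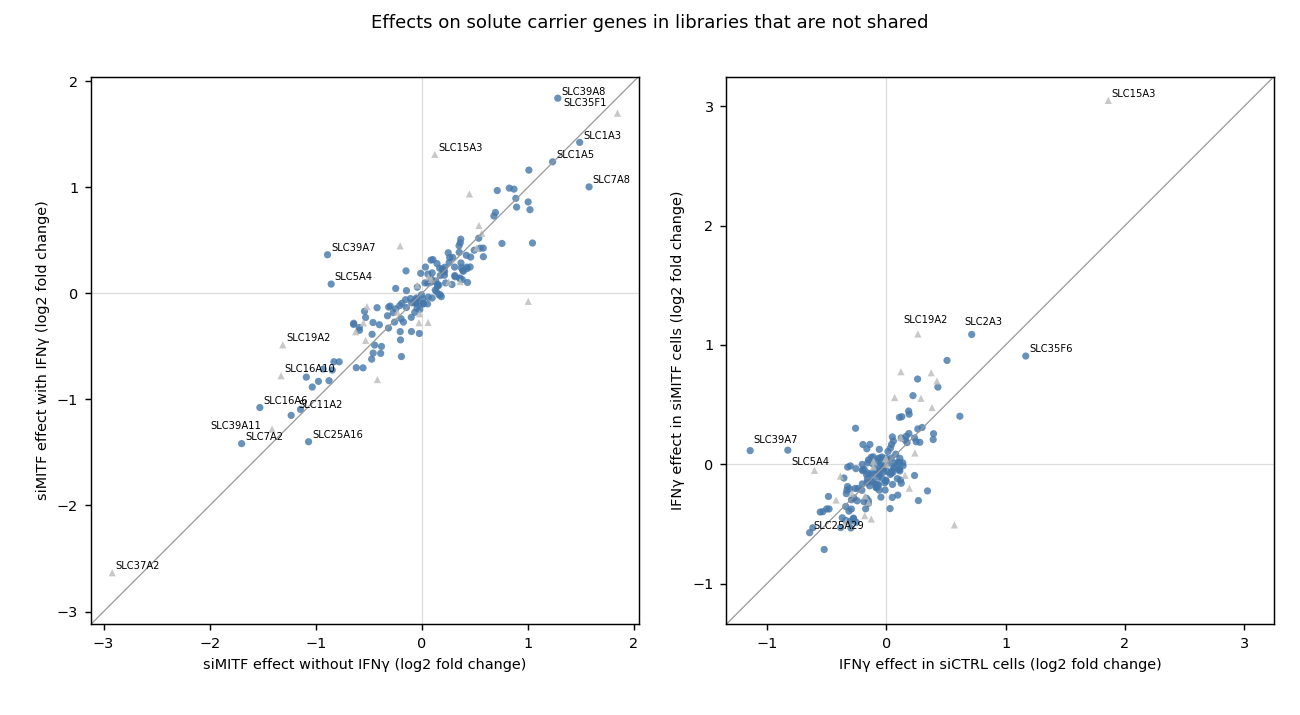
Log2 fold change of TPM + 1 of each solute carrier for siMITF without (x axis) and with IFNγ (y axis) on the left, and for IFNγ in siCTRL (x axis) and siMITF cells (y axis) on the right. Blue circles are the 148 genes at 5 TPM in all conditions, grey triangles the other 26, and the diagonal marks equal effects. SLC39A7 and SLC5A4 lie left of 0 on both x axes and slightly above 0 on both y axes.

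IFNγ in siCTRL cells altered a smaller number of solute carriers than MITF knockdown did, 16 against 64 of the genes at 5 TPM in all conditions. Of the 148 genes 16 were called, 10.8% beside a background of 11.4%, 8 higher (background 4.81%) and 8 lower (background 6.61%). The median log2 fold change was -0.060 for the solute carriers and -0.082 for the genes at that level. A change of 2-fold or more was called for SLC35F6 and SLC39A7, 2 genes, against 1.06% of genes at that level. No amino acid, vitamin, fatty acid, nucleoside, monocarboxylate, organic ion, or iron and copper carrier at 5 TPM in all conditions was called, but with the replicate number as a block each of these groups other than the fatty acid carriers had at least 1 call. Libraries did not overlap for 35 of the 148 (23.6%, against 28.1% of genes at that level). With the block 47 of 148 were called, 15 higher and 32 lower, against a background of 26.3%. Falls also outnumbered rises among the 9789 genes at that level, with 763 higher and 1814 lower. Those added included both nucleoside and nucleobase carriers (SLC29A1 and SLC43A3, lower), 3 of the 6 iron and copper carriers (SLC31A1, SLC39A14 and SLC39A8, lower), SLC16A1 (lower), SLC16A6 (higher) and the vitamin carriers SLC23A2 and SLC5A6 (lower). Of the 21 amino acid carriers, SLC1A5, SLC38A2 and SLC7A8 were called higher and SLC7A1 and SLC36A4 lower with it. Over all 174 genes, where the background was 12.9%, the split was 10 higher and 11 lower, and 20 and 35 with each library centred on its median, or 18 and 31 with quantile normalization. It was 11 and 5 without siCTRL + IFNγ replicate 1, and 5 and 17 without replicate 2 of that condition.

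The largest rise was that of SLC35F6, a membrane protein of mitochondria and lysosomes without a settled substrate. It was at 32.1, 34.9 and 32.4 TPM in siCTRL and 65.4, 86.4 and 76.8 TPM in siCTRL + IFNγ libraries (log2 fold change 1.17, SE 0.10, adjusted p = 3.61e-06). The glucose transporter SLC2A3 rose from 34.0, 43.4 and 34.7 to 54.6, 73.0 and 58.7 TPM (log2 fold change 0.72, SE 0.12, adjusted p = 0.00188), and the chloride-bicarbonate exchanger SLC4A2 from 107, 123 and 117 to 154, 204 and 177 TPM (log2 fold change 0.62, SE 0.11, adjusted p = 0.00203). In all 3 the lowest library with IFNγ lay above the highest without. The anion exchanger SLC26A4 (pendrin) went from 6.25, 7.98 and 7.27 to 8.97, 10.9 and 12.1 TPM (log2 fold change 0.51, SE 0.12, adjusted p = 0.0129). Smaller rises were 0.43 for SLC35F5, 0.40 for SLC16A4, 0.30 for the mitochondrial iron importer SLC25A28 and 0.27 for the nucleotide sugar carrier SLC35D2.

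Both called zinc carriers fell with IFNγ. SLC39A7 was at 22.6, 22.5 and 15.2 TPM in siCTRL and 10.2, 6.68 and 8.77 TPM in siCTRL + IFNγ libraries (log2 fold change -1.14, SE 0.22, adjusted p = 0.00357), and the importer SLC39A10 at 15.9, 21.6 and 18.8 and 10.1, 15.7 and 13.4 TPM (log2 fold change -0.50, SE 0.15, adjusted p = 0.042). SLC5A4 fell from 14.8, 14.7 and 14.9 to 6.06, 8.36 and 9.72 TPM (log2 fold change -0.82, SE 0.16, adjusted p = 0.00363). The mitochondrial basic amino acid carrier SLC25A29 went from 21.6, 23.9 and 20.4 to 13.1, 15.2 and 12.9 TPM (log2 fold change -0.64, SE 0.15, adjusted p = 0.0131). SLC35F2, known for the uptake of a cytotoxic compound, went from 32.8, 36.0 and 34.7 to 20.1, 24.9 and 21.8 TPM (log2 fold change -0.61, SE 0.094, adjusted p = 7.24e-04) and the sulfate transporter SLC26A2 from 23.8, 29.0 and 26.5 to 14.5, 20.7 and 18.4 TPM (log2 fold change -0.55, SE 0.12, adjusted p = 0.00859). SLC35E3 had -0.48.

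Carriers central to fuel use were divided for IFNγ. The glucose transporter SLC2A3 was called higher, as given above, while SLC2A1, SLC7A5, SLC1A5, SLC16A1 and SLC38A2 were not called. SLC2A1 was listed at 292, 334 and 314 TPM without and 228, 327 and 325 TPM with IFNγ (log2 fold change -0.11, SE 0.19, adjusted p = 0.766), SLC7A5 at 242, 266 and 259 and 222, 299 and 275 TPM (log2 fold change 0.045, SE 0.14, adjusted p = 0.886), and SLC1A5 at 168, 176 and 169 and 183, 209 and 188 TPM (log2 fold change 0.17, SE 0.065, adjusted p = 0.105). SLC16A1 was at 57.5, 76.0 and 60.3 and 44.3, 56.4 and 53.2 TPM (log2 fold change -0.32, SE 0.11, adjusted p = 0.078). With the replicate block SLC16A1 was called lower (adjusted p = 0.0117), and SLC38A2 and SLC1A5 higher (0.0342 and 0.0193).

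**Figure D4:**
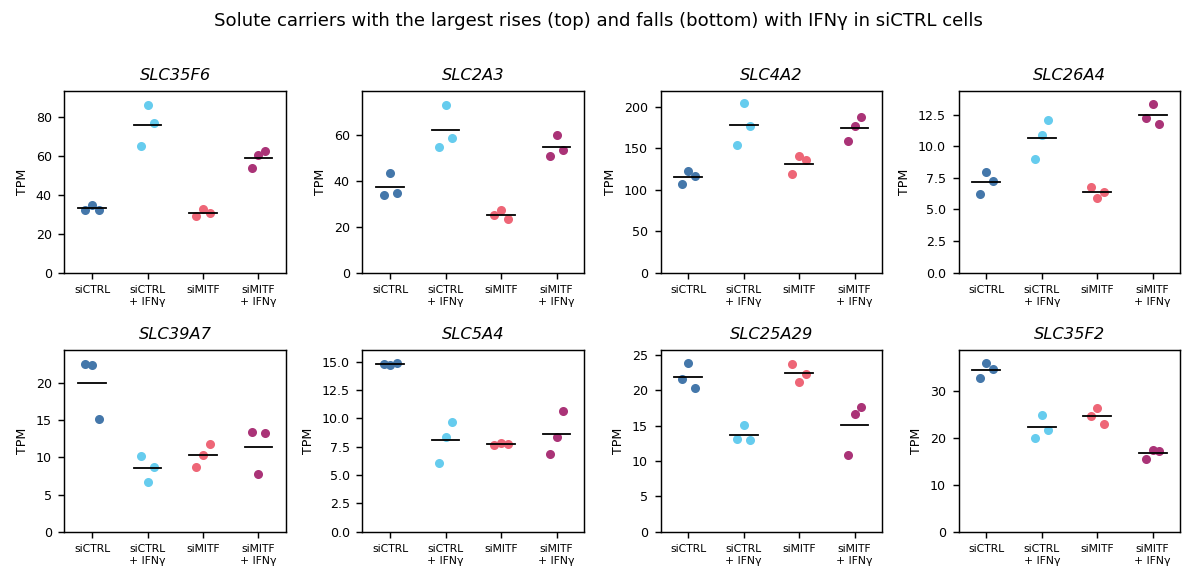
TPM in each library (points, in the order of replicates 1 to 3) and the condition mean (bars) for the 4 largest rises (top) and the 4 largest falls (bottom) with IFNγ in siCTRL cells among solute carriers at 5 TPM in all conditions. SLC35F6 stands at 65.4 to 86.4 TPM in siCTRL + IFNγ and at 32.1 to 34.9 TPM in siCTRL libraries, and SLC5A4 lies at about one level in the 3 conditions other than siCTRL.

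Of the 16 calls, those of SLC35F6, SLC2A3, SLC4A2, SLC35F2, SLC26A2, SLC39A7 and SLC5A4 were kept in every alternative fit and without each library. The other 9 were all lost without siCTRL + IFNγ replicate 3, with adjusted p of 0.0564 to 0.153. Without siCTRL replicates 1, 2 and 3 the calls lost were 7, 6 and 7, and without siCTRL + IFNγ replicates 1 and 2 they were 4 each. Leaving out siMITF libraries, which bear on the estimate of the spread, lost 4 or 5, and siMITF + IFNγ libraries 0 to 3.

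In siMITF cells the fold changes for IFNγ come from separate libraries, while the tests share the estimate of the spread with those in siCTRL cells. Here 25 of the 148 genes were called, 11 higher (background 6.01%) and 14 lower (background 12.7%), against a background of 18.7% in all. With the replicate block this was 51, against 36.5%. Of the 16 genes called in siCTRL cells 11 were called here too, 68.8% of the first list and 44% of the second, where the genes at that level gave 72.5% and 44.3%. The correlation of the 2 sets of log2 fold changes was 0.681 across the 148 genes and 0.838 across the 9789. SLC2A3 was at 25.03, 27.4 and 23.4 TPM in siMITF and 51.0, 60.1 and 53.5 TPM in siMITF + IFNγ libraries (log2 fold change 1.09, SE 0.12, adjusted p = 4.42e-05), SLC35F6 at 29.3, 32.6 and 30.9 and 53.6, 60.4 and 62.8 TPM (log2 fold change 0.91, SE 0.10, adjusted p = 3.74e-05), and SLC26A4 at 6.75, 5.91 and 6.39 and 12.3, 13.3 and 11.7 TPM (log2 fold change 0.87, SE 0.12, adjusted p = 2.01e-04). All 3 rose, as they had in siCTRL cells. SLC16A6 went from 67.8, 74.9 and 72.5 to 113, 122 and 119.8 TPM (log2 fold change 0.71, SE 0.086, adjusted p = 7.82e-05) and SLC30A7 from 11.96, 11.4 and 10.6 to 18.9, 16.2 and 17.0 TPM (log2 fold change 0.58, SE 0.093, adjusted p = 8.33e-04). In siCTRL cells SLC16A6 had 0.26 (adjusted p = 0.0674), which was called with the replicate block (adjusted p = 0.00351), and SLC30A7 had 0.22, which was called with neither (0.146 and 0.0727). Both nucleoside and nucleobase carriers fell in siMITF cells, the equilibrative nucleoside transporter SLC29A1 from 44.1, 49.0 and 52.3 to 19.9, 37.5 and 32.9 TPM (log2 fold change -0.71, SE 0.23, adjusted p = 0.0469) and SLC43A3 from 93.9, 99.7 and 96.1 to 58.5, 73.7 and 77.6 TPM (log2 fold change -0.47, SE 0.12, adjusted p = 0.0167). In siCTRL cells they had -0.52 (adjusted p = 0.176, and 0.00916 with the replicate block) and -0.34 (adjusted p = 0.0944, and 0.00529 with the block), so that the block called both lower there too, and the interaction had adjusted p of 0.987 and 0.976. The other genes that fell included the mitochondrial carriers SLC25A29, SLC25A10, SLC25A15, SLC25A38 and SLC25A39, at -0.57 to -0.28.

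With 64 genes called for siMITF and 16 for IFNγ in siCTRL cells, both treatments alone were called for 7 genes and neither for 75. In none of the 5 comparisons were 65 called. The same counts over all genes at that level are not given here, so the 7 are a list and not an excess. SLC16A4 and SLC35D2 rose with each treatment, and SLC35F2, SLC39A7 and SLC5A4 fell with each. SLC2A3 fell with siMITF and rose with IFNγ, and SLC26A2 rose with siMITF and fell with IFNγ. In the combination SLC26A2 was at 38.9, 42.4 and 41.2 TPM, above every siCTRL library and below every siMITF library. The 2 comparisons share the siCTRL libraries, so that a high or low value there moves both.

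The test of the difference between the IFNγ effects of siMITF and siCTRL cells (the interaction of the 2 treatments) called none of the 148 genes in limma, against a background of 0.317%. An unadjusted p under 0.05 was found for 10 of the 148, and for 556 of the 9789 genes at that level. With the replicate block 5 were called, against a background of 1.48%. Over all 174 genes, where the background was 0.947%, 1 was called and higher, while centring gave 4 higher and 1 lower and quantile normalization 6 and 1. The 1 gene was SLC15A3, which entered the list only through its level in siMITF + IFNγ cells, so that this count is no support. SLC39A7 had the largest interaction, 1.25 (SE 0.30, adjusted p = 0.1, 0.0383 with the block), with 8.68, 10.4 and 11.8 TPM in siMITF and 13.4, 7.76 and 13.2 TPM in siMITF + IFNγ libraries. SLC5A4 followed with 0.94 (SE 0.22, adjusted p = 0.0868, 0.012 with the block) and 7.63, 7.80 and 7.76 and 6.84, 8.36 and 10.6 TPM. Each was lower in all 3 treated conditions than in siCTRL, and the mean with both treatments was no lower than that with either one. SLC39A8 had 0.56 (SE 0.14, adjusted p = 0.131, 0.0113 with the block), SLC16A6 0.45 (SE 0.12, 0.159 and 0.00847) and SLC7A8 -0.57 (SE 0.17, 0.205 and 0.0113). SLC7A8 was at 66.8, 92.8 and 76.2 TPM in siCTRL + IFNγ and 145, 169 and 158 TPM in siMITF + IFNγ libraries, so that the difference between the 2 knockdown states was smaller with IFNγ than without.

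The 26 genes that reached 5 TPM in some conditions only are described by their levels, because the limit itself favours a difference in them. Of these, 9 reached it in 1 condition, 12 in 2 and 5 in 3. SLC37A2, a sugar phosphate exchanger of the endoplasmic reticulum, was at 34.2, 39.1 and 36.1 TPM in siCTRL, 22.1, 32.4 and 29.6 in siCTRL + IFNγ, 3.12, 4.63 and 4.20 in siMITF and 2.42, 4.03 and 4.71 in siMITF + IFNγ libraries. SLC39A11, a zinc importer, was at 13.4, 15.8 and 13.7 TPM in siCTRL and 4.58, 5.13 and 4.52 TPM in siMITF libraries. SLC16A10, a carrier of aromatic amino acids, was at 7.22, 5.502 and 7.34 and 1.95, 2.56 and 1.69 TPM, and at 3.37, 4.24 and 4.59 TPM in siCTRL + IFNγ. These 3 were low in all siMITF libraries, with or without IFNγ. The thiamine transporter SLC19A2 was at 9.43, 6.89 and 13.2 TPM in siCTRL and 3.78, 4.42 and 1.96 TPM in siMITF libraries, but its siCTRL + IFNγ libraries ran from 6.16 to 24.8 TPM and its siMITF + IFNγ libraries from 5.02 to 15.9 TPM.

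SLC35F1, whose substrate is not settled, was at 3.60, 3.72 and 3.68 TPM in siCTRL and 16.4, 16.2 and 14.8 TPM in siMITF libraries, and at 2.67, 2.92 and 2.52 and 11.4, 10.5 and 11.2 TPM in the corresponding conditions with IFNγ. The bile acid and steroid transporter subunit SLC51A was at 3.73, 3.97 and 3.59 TPM in siCTRL, 7.18, 5.43 and 4.23 TPM in siMITF and 9.87, 9.003 and 7.11 TPM in siMITF + IFNγ libraries. SLC4A11, a membrane protein that conducts protons and ammonia, was at 2.73, 1.97 and 2.56 and 7.62, 5.40 and 4.76 TPM in siCTRL and siMITF libraries. All 3 were higher in every siMITF library than in any siCTRL library, but SLC4A11 was at 2.64, 2.80 and 6.9995 TPM in siMITF + IFNγ libraries. SLC15A3, an endolysosomal peptide and histidine transporter like SLC15A4, was listed at 0.00459, 0.0998 and 0.141 TPM in siCTRL and 0.324, 0.0718 and 0.147 TPM in siMITF libraries without IFNγ, and at 2.36, 3.63 and 2.87 and 7.34, 9.81 and 9.23 TPM with it. It was thus the one gene of the 174 that was near 0 in both conditions without IFNγ. SLC46A3, a lysosomal carrier, was at 5.55, 5.76 and 5.98 and 6.92, 8.60 and 7.90 TPM in siCTRL cells without and with IFNγ and at 3.53, 4.07 and 3.59 and 6.75, 7.39 and 7.01 TPM in siMITF cells. The manganese exporter SLC30A10 was at 6.13, 7.28 and 6.22 and 3.97, 5.42 and 4.58 TPM in siCTRL cells without and with IFNγ. The condition means of the other 16 lay between 2.12 TPM (SLC12A7, siMITF) and 8.73 TPM (SLC26A1, siCTRL + IFNγ).

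**Figure D5:**
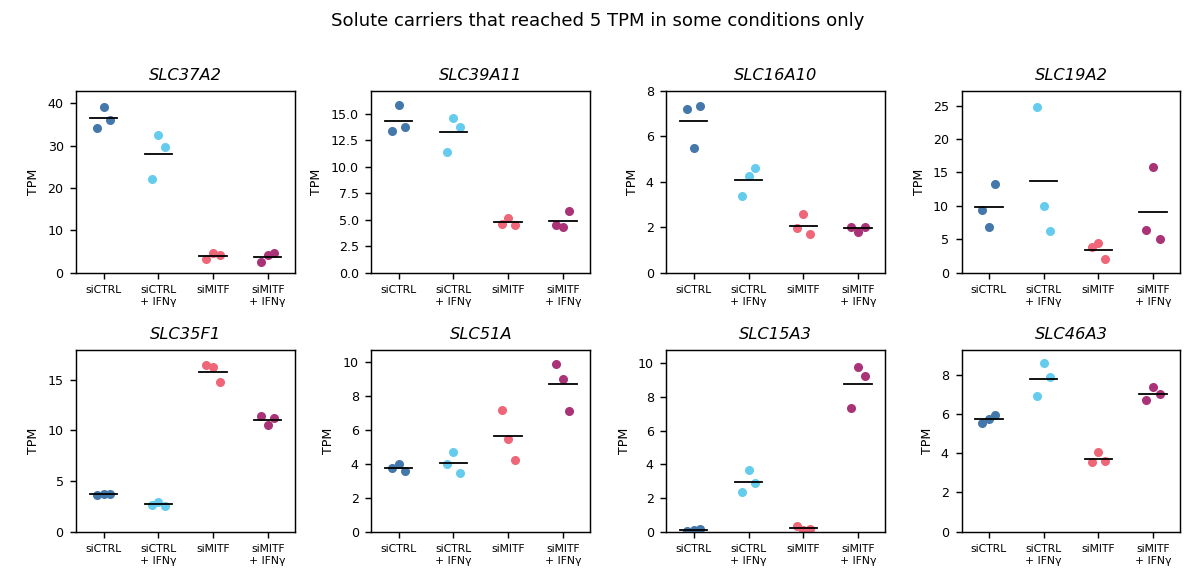
TPM in each library (points, in the order of replicates 1 to 3) and the condition mean (bars) for 8 of the 26 solute carriers that reached 5 TPM in some conditions only. SLC15A3 lies near 0 without IFNγ and reaches 7.34 to 9.81 TPM in siMITF + IFNγ libraries, and SLC37A2 stands at 22.1 TPM or more in siCTRL and at 4.71 TPM or less in siMITF cells.

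Transporters of the superfamily under other symbols, and proteins that assist them, were counted from a list of 30. Of the 22 at 5 TPM in all conditions, 5 were called for siMITF, beside a background of 32.7% for calls of either direction. All of these fell, against a background of 14% for falls, and the median log2 fold change of the 22 was -0.0060. The 5 were MFSD5 (-0.64), the cholesterol exporter of lysosomes NPC1 (-0.65), the cystine exporter of lysosomes CTNS (-0.37) and the mitochondrial sideroflexins SFXN4 (-0.41) and SFXN5 (-0.37). SV2A, also listed, was not counted because its mean was 4.19 TPM in siCTRL + IFNγ cells. It went the other way, with means of 5.26 TPM in siCTRL and 10.84 TPM in siMITF cells. For IFNγ in siCTRL cells 3 of the 22 fell and none rose, against backgrounds of 11.4% for all calls and 6.61% for falls. These were the pyruvate carrier subunit MPC2 (-0.33), SFXN4 (-0.42) and the uncoupling protein UCP2 (-0.41). BSG, the chaperone that SLC16A1 needs at the cell surface, had a mean of 473.9 TPM in siCTRL and 531.6 TPM in siMITF cells and was not called (log2 fold change 0.17, limma adjusted p = 0.0982).

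Carriers of endosomes and lysosomes were brought together in a list of 16 members that was chosen after their values were seen. Of the 12 at 5 TPM in all conditions, 5 fell and 2 rose with siMITF (backgrounds 14% and 18.7%), with a median log2 fold change of -0.15 against 0.046 over genes at that level, and 1 rose with IFNγ (background 4.81%). Because of how it was chosen, the list is a description and supports no theme. The falls included those of SLC11A2, SLC49A4, SLC66A1 and SLC36A1, the rises with siMITF those of SLC2A8 and SLC17A5, and the rise with IFNγ that of SLC35F6.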

How the data were processed

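RNA sequencing of 12 libraries was used. The authors trimmed reads with Trimmomatic 0.39 and quantified them with kallisto on the Ensembl GRCh38 transcriptome (the release is not given in the sources used here), per the paper and the submitters' processing notes, and deposited TPM per Ensembl gene ID. DESeq2 1.26.0 is also named there, but counts were not used here. Symbols came from GENCODE version 44. The members, groups and lists were chosen with earlier results of these data known.

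TPM were transformed as log2(TPM + 1), and limma 3.58.1 (R 4.3.3) was run on 12773 gene IDs averaging 2 TPM or more in some condition. The fit had 1 coefficient for each condition, an intensity trend, two-sided moderated tests and Benjamini-Hochberg adjustment over all of them. A gene was called at an adjusted p under 0.05. An exact permutation test of 3 against 3 libraries cannot go below 0.1 and was not used. The script was tested on simulated data. Python 3.11.15, with matplotlib 3.10.9, numpy 2.4.6 and pandas 2.3.3, made the tables and plots.

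The rule for naming took the 12 largest called rises and falls without overlapping libraries for each treatment, the 6 largest interactions of each sign, the highest gene of each group in siCTRL, the genes nearest to the limit of 5 TPM, and a list of fuel, amino acid and metal carriers: SLC2A1, SLC2A3, SLC16A1, SLC16A3, SLC1A5, SLC38A1, SLC38A2, SLC7A5, SLC1A3, SLC1A4, SLC30A1, SLC39A14, SLC25A4, SLC25A5, SLC25A6, SLC15A3, SLC15A4 and SLC25A28. Other genes were named after their values were seen, and a few genes that were counted are not reported here by name.

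Deviations from the condition means correlated between libraries with the same replicate number in each of 18 pairs (0.102 to 0.625, median 0.279) and had a median of -0.196 in 36 pairs with different numbers. The numbers in the titles thus pair the libraries, and blocked counts are given beside the counts they change, with blocked values for genes named with their libraries. Library correlations were 0.917 to 0.995, and 0 pairs were identical. SLC16A1, SLC25A24, SLC25A26 and SLC52A2 have the same values under a second gene ID, 10059 gene IDs had no symbol, and reads shared by paralogs or pseudogenes could be split differently. Alternatives were other pseudocounts, filters, scalings, a fit without a trend, a fit of the compared conditions only, sums by symbol, a stricter threshold, and each library left out. Promoter sequences are RefSeq's for GRCh38.p14, and 32 members had no entry.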

Additional observations from a re-analysis of the deposited data

Results flagged for a closer look

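The IFNγ effect on SLC15A3 was larger in siMITF than in siCTRL cells, by 1.19 on the log2(TPM + 1) scale, and it was singled out for that difference between the 2 kinds of cell. SLC15A3 entered the list only through its mean of 8.79 TPM in siMITF + IFNγ cells, so that the gene had to be high there. The value is therefore a description, and no test of it is given as support. It was 0.94 with a pseudocount of 0.1 TPM and 1.22 with 0.5 TPM.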

How the results depend on the processing

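Counts are given here over all 174 solute carriers, and backgrounds over all 12773 gene IDs tested in the main fit. These backgrounds were 34.8% for siMITF without IFNγ and 33.1% with it, beside 44.8% and 37.9% of solute carriers. For IFNγ they were 12.9% in siCTRL and 20.2% in siMITF cells, beside 12.1% and 19.5% of solute carriers. For the interaction it was 0.947%, beside 0.575%, a share that is SLC15A3 alone, which was included only through its level in siMITF + IFNγ cells. For siMITF without IFNγ 78 were called, 60 to 91 with each library left out and within 1.5 times of 78 under every other alternative, and with IFNγ 66 were called and 52 to 71. The split without IFNγ was 42 higher and 36 lower, but 48 and 54 with centring, 47 and 54 with quantile normalization and 32 and 37 without siCTRL replicate 1. With IFNγ it was 35 and 31, but 27 and 42 without siCTRL + IFNγ replicate 1 and 45 and 26 without siMITF + IFNγ replicate 1. For IFNγ in siCTRL cells 21 were called, 55 with each library centred on its median, 49 with quantile normalization, 35 without mitochondrially encoded genes, 11 with only the conditions compared in the fit and 8 at an adjusted p under 0.01, and 9 (without siCTRL + IFNγ replicate 3) to 26 with each library left out, among them 10, 12 and 10 without siCTRL replicates 1, 2 and 3. For IFNγ in siMITF cells 34 were called, 61 with centring, 63 with quantile normalization, 21 without a filter on low values and 17 at an adjusted p under 0.01, and 19 (without siMITF replicate 3) to 50 (without siCTRL + IFNγ replicate 1), with 22 and 21 without siMITF replicates 1 and 2. The interaction called 1, 5 with centring, 7 with quantile normalization and 6 without mitochondrially encoded genes, 0 when genes averaging 5 TPM or more across the 12 libraries were tested, with pseudocounts of 0.1 or 0.5 TPM, among genes at 5 TPM in all conditions or at an adjusted p under 0.01, and 0 to 2 with each library left out. With the replicate number as a block, which the pairing check favoured, the counts were 55 for IFNγ in siCTRL cells, 63 in siMITF cells and 7 for the interaction, and no call made without the block was lost. Over all gene IDs tested the block called 3281, 4556 and 276, against 1652, 2574 and 121 without it. Backgrounds for the other alternatives are not given here. Among genes at 5 TPM in all conditions, 47 of 64 calls for siMITF without IFNγ were made in every alternative. For IFNγ in siCTRL cells this held for 7 of 16, and none of these calls changed sign. TPM hold no depth, which limits every low value to the spread between 3 libraries. The cause of these shifts was not tested.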
